A study of Mus musculus with 28 samples.

Results

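H3K36me3, trimethylation of lysine 36 on histone H3, was mapped by chromatin immunoprecipitation with sequencing (ChIP-seq) in IDG-SW3 cells at day 3 and at day 35 of differentiation, with 1 library at each day. These 2 samples, of 28 in the series, were taken by their titles. The percent of the body of each protein-coding gene that lay under called H3K36me3 regions was compared between the days for 21418 genes on chromosomes 1 to 19. IDG-SW3 is an immortalized mouse bone cell line made to pass in culture from an osteoblast stage to an osteocyte stage, and it carries a green fluorescent protein transgene under the Dmp1 promoter. All cells were expanded at 33 °C with 50 U/mL interferon gamma and then moved to 37 °C in medium with ascorbic acid and beta-glycerol phosphate and without interferon gamma. Day 3 and day 35 count from that move, and neither library had hormone treatment. The stage of differentiation, the time since interferon gamma was withdrawn and the time since the change of temperature cannot be told apart with these groups.

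The methyltransferase SETD2 travels with elongating RNA polymerase II and lays down H3K36me3 behind it, so the mark fills the bodies of transcribed genes and usually thickens towards their ends. Promoters and silent genes lack it. The mark recruits proteins that restore closed chromatin, DNA methylation and repair factors within transcribed genes. In bone-forming cells the transcribed genes include those of the collagen matrix, and osteocytes are the non-dividing cells that osteoblasts become once buried in mineral. Coverage is a sign of transcription and not its rate: a gene is covered or not at each base, and a gene already covered in full cannot gain.

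With 1 library a day the difference has no replicate check, and no p-value is given. A gene is said to have risen or fallen when its coverage differed by at least 25 percentage points of the gene body. By this rule 1068 genes rose (4.99% of those compared) and 838 fell (3.91%), and the other 19512 stayed within 25 points. These shares are the background for every gene list below. They include 10138 genes with no coverage at day 3, which could not fall. A list well covered at day 3 therefore had more room to fall than all genes together. A share over covered genes alone was not computed. In bulk cells, fewer cells with a gene active and less mark in each cell cannot be told apart.

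The sets of genes that fell include the targets of interferon and the genes of cell division, and short promoter stretches are shown here because each set is known for its own control motif. The interferon-stimulated response element was searched as GAAA, any 2 bases and GAAA, and the cell cycle homology region as TTTGAA, on both strands, from 250 bases before to 50 after each gene's start on the NCBIM37 (mm9) assembly. The first motif was found in the promoters of 23 of 61 interferon genes (37.7%), against 800 of all 21418 promoters (3.74%), and in 11 of the 18 interferon genes whose coverage fell. The second was found in 29 of 57 cell cycle genes (50.9%), 16 of them among the 30 that fell, against 16.1% of all promoters. Of 53 replication genes, 7 held the second motif (13.2%). A match is a description of the letters and not a binding site. Each stretch below is 30 bases on the strand of its gene, with the last match of its motif in capitals. Lowercase letters can hold further matches, since the windows of Zbp1 and Isg15 held 4 and 3 matches of the response element.
Zbp1: aaagtttcatTTTCTCTTTCtttgaaaagc
Oas2: cacacttgagTTTCGATTTCctaggttcct
Ifit3: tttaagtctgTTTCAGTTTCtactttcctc
Isg15: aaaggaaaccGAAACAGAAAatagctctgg
H2-T23: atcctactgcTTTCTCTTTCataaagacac
B2m: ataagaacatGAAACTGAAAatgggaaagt
Kif23: ctgattggcctgTTTGAAatgcgccgggcg
Ncapg: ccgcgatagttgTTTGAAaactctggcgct
Kif15: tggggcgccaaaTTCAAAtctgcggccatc
Mki67: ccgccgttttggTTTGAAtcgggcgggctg

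The stretches lie at chr2:173044450-173044479 (minus strand) for Zbp1, chr5:121199914-121199943 (minus) for Oas2, chr19:34657887-34657916 (plus) for Ifit3 and chr4:155574974-155575003 (minus) for Isg15. H2-T23 is at chr17:36169751-36169780 (minus) and B2m at chr2:121973274-121973303 (plus). The mitotic genes are at chr9:61794587-61794616 (minus) for Kif23, chr5:46061122-46061151 (plus) for Ncapg, chr9:122860168-122860197 (plus) for Kif15 and chr7:142908143-142908172 (minus) for Mki67. The gamma-activated site, searched as TTCNNNGAA, was in 15 of the 61 interferon promoters (24.6%) and in 7.89% of all promoters, and its match overlapped one of the response element in 2 interferon promoters. Antigen presentation genes held the response element in 4 of 23 promoters.

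The lists at both days covered similar lengths and mostly the same bases. The day-3 list had 31529 regions over 303.1 Mb and the day-35 list 27018 regions over 292.6 Mb on these chromosomes. Day-35 regions were wider, with a median of 4246 bp against 2813 bp. The bases in both lists made up 82.0% of the day-3 list and 84.9% of the day-35 list. Gene bodies held 90.7% of the covered bases at day 3 and 92.6% at day 35. Exonic bases were covered at 49.4% and 53.0%, intronic bases at 27.3% and 26.5%. The score of a region is the authors' own number on a scale not stated, and the read depth is not given in the lists. The region with the highest score at day 3 covered Cdh11, the osteoblast cadherin, at chr8:105154186-105308290, and that body was covered at 99.5% and 97.4%.

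At least 50% of the body was covered in 7939 genes at day 3 and in 8086 at day 35, and 7187 genes met this at both days. No base was covered at either day in 9251 genes. The number of genes covered over at least 90% of their body was lower at day 35, at 1976 against 2889. The median change over all genes was 0 points. A complete switch was rare: 167 genes went from no coverage to at least 50%, and 77 went from at least 50% to none, 7 of which are gene models within the first 3.1 Mb of chromosome 9. The threshold cuts a continuous range, with Coasy just inside the rise at 25.01 points and BC048403 just outside at 24.99. Rpl9 lay just inside the fall and Rock2 just outside at -24.98 points.

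**Figure D1:**
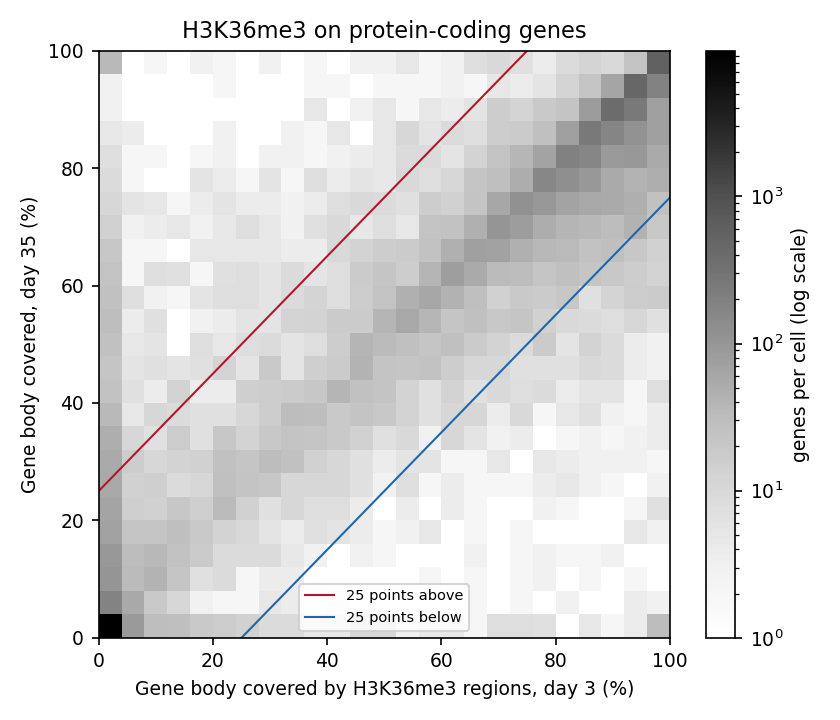
Percent of the gene body covered by H3K36me3 regions at day 3 (horizontal axis) and day 35 (vertical axis) for 21418 protein-coding genes, shaded by the number of genes on a log scale. The lines mark 25 points above and below equality; most genes lie between them, with 1068 above and 838 below.

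How the balance of rises and falls read depended on which bases of the gene were counted. Of the genes that changed, 56.0% rose. Over exonic bases alone 1462 genes rose and 510 fell (74.1% rose), and over the 3 prime 50% of the body 1393 rose and 635 fell (68.7%). Among the higher-scoring 50% of the regions of each list the split was 960 to 1061. By length, 4.12% of genes under 10 kb rose and 3.40% fell, and 4.78% and 4.74% of genes of at least 50 kb did. By chromosome the share that rose ran from 2.82% on chromosome 16 to 7.59% on chromosome 1, and the share that fell from 1.79% on chromosome 7 to 6.13% on chromosome 4.

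Among genes of at least 10 kb, the 15 largest falls included genes of chromosome segregation, DNA repair and the interferon response. Kif14, a kinesin of cytokinesis, went from 99.99% of its 63.55 kb body to 2.92%. Kif18b, a mitotic kinesin, went from 93.3% to 0%. Esco2, which acetylates cohesin in S phase, went from 91.2% to 0%, and Ska1, of the kinetochore, from 90.9% to 0%. Brca1, of homologous recombination, went from 96.2% to 7.02% of a 63.19 kb body. Nek2, a centrosome kinase, went from 92.4% to 6.38%. These bodies were all but filled at day 3 and all but empty at day 35.

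Depdc1a, Iqgap3, Gm765, 1700017G19Rik and Plac8 were also among the 15. Depdc1a went from 96.1% to 0% and Plac8 from 91.2% to 4.18%. Zbp1, a sensor of nucleic acids induced by interferon, went from 86.5% to 0%, and Iigp1, an interferon-induced GTPase, from 92.4% to 6.31%. H3K27Ac around the start stayed within 25 points in 7 of the 15 genes: Rbm18, Gm765, Ccdc90b, 1700017G19Rik, Brca1, Iqgap3 and Kif14. Rbm18 went from 94.9% to 0% of H3K36me3, while H3K27Ac, the acetyl mark of active promoters, covered 100% of the 4 kb around its start at both days and H4K20me1, another gene body mark, covered 83.4% and 83.6% of its body. Ccdc90b went from 87.4% to 0%, with H3K27Ac at 62.6% and 59.0%. H3K27Ac was at 100% on both days at Gm765 and at 100% and 89.2% at 1700017G19Rik.

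The 15 largest rises included genes of the collagen matrix, of signalling and of chromatin. Scd4, a stearoyl-CoA desaturase, went from 0% to 97.8%, on a region of low score density, at the 23.3 percentile of the day-35 list. P4ha3, a subunit of the prolyl hydroxylase that modifies collagen, went from 0% to 88.0%, and Col11a2, a chain of type XI collagen, from 0% to 85.8%. Nkd2, an inhibitor of Dishevelled in Wnt signalling, went from 0% to 92.1%. Msi1, an RNA-binding protein of progenitor cells, went from 0% to 89.7%. Hdac11, a histone deacetylase, went from 2.77% to 90.5%. Trpv2, a calcium channel, went from 0% to 86.2%, and Mdfi, an inhibitor of myogenic factors, from 0% to 81.8%. The remaining genes of the 15 are D6Wsu163e, Chd1l, Gprc5c, Tctn2, Myo7a, Tmem68 and Dedd2, which started between 0% and 5.14% and ended between 81.5% and 95.0%.

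Start-site marks moved with some of these rises and not with others. Around the Msi1 start H3K27Ac went from 0% to 80.7%, and around the Col11a2 start from 0% to 89.7%. H4K20me1 over the body went from 0% to 95.4% at Gprc5c and from 0% to 88.9% at Mdfi. Around the P4ha3 start H3K27Ac was at 100% on both days, and around the Dedd2 start it was at 82.5% and 81.5%. Scd4, the largest rise, had less H3K27Ac at day 35, at 15.9% against 42.5%.

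**Figure D2:**
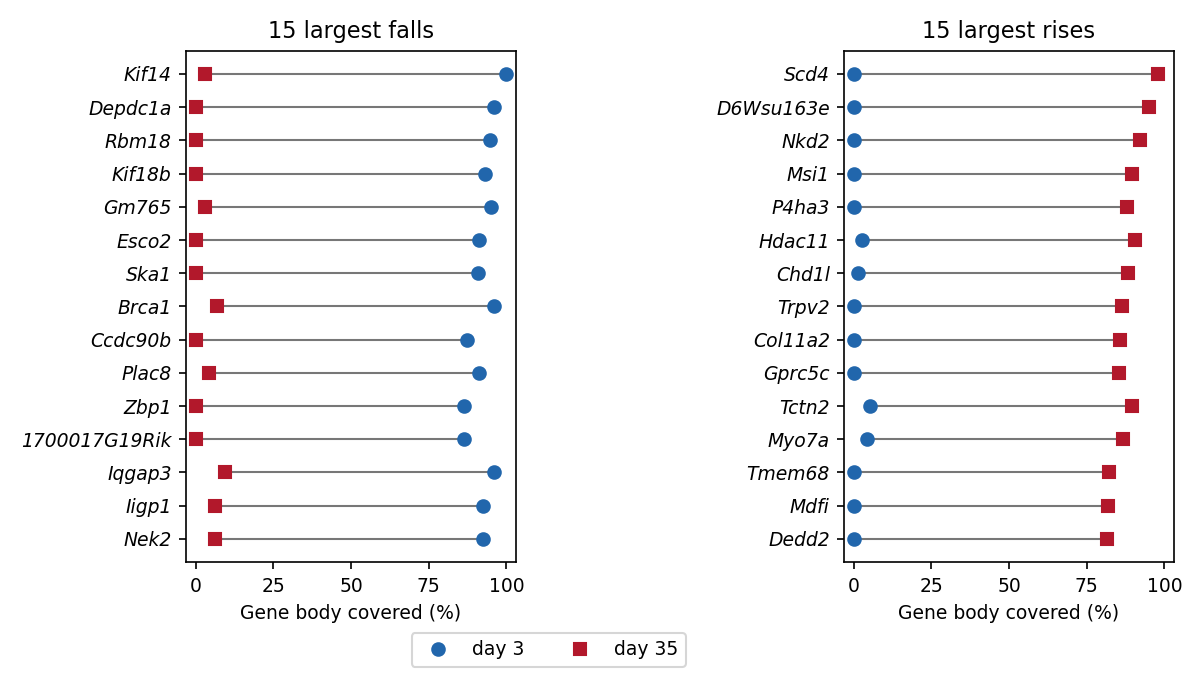
Percent of the gene body covered by H3K36me3 regions at day 3 (circles) and day 35 (squares) for the 15 largest falls (left) and the 15 largest rises (right). The fallen genes go from between 86.5% and 99.99% to at most 9.57%, and the risen genes start at 5.14% or less.

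Genes were also read by function, in 27 lists of 818 genes used, 49 of which rose and 114 fell (entries in more than 1 list counted in each). The cell cycle list fell furthest. Of its 57 genes 30 fell (52.6%, against 3.91% of all genes), none rose, and 56 were lower at day 35 by any amount. The median change was -28.97 points, against 0 over all genes. Other lists well covered at day 3 also had medians below 0. These were -8.06 points in ribosomal protein genes, with 27 of 32 lower by any amount, and -1.91 in oxidative phosphorylation genes, with 26 of 33 lower. Ccnb1, cyclin B of mitotic entry, went from 93.2% to 0%. Aurkb, the kinase of the chromosomal passenger complex, went from 63.0% to 0%. Kif23, a kinesin of the central spindle, went from 95.0% to 10.4%, Kif15 from 96.5% to 20.9% and Kif2c, which takes microtubules apart at centromeres, from 92.2% to 17.4%. Ncapg, a condensin subunit, went from 96.7% to 13.5%. Mki67, the proliferation marker, went from 90.8% to 24.8%.

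Regulators of the cycle moved unequally. Among transcription factors of the cycle, Mybl2 went from 74.9% to 7.61%, E2f7 from 98.2% to 17.7% and E2f1 from 84.5% to 50.3%. Of the 4 inhibitors of cyclin-dependent kinases in the list 3 fell: Cdkn2a went from 93.7% to 18.2%, Cdkn2c from 73.2% to 0% and Cdkn1a, a p53 target, from 100% to 60.9%. Cdkn1b was at 89.2% and 69.2%. Over all 10 Cdkn genes 4 fell. Cyclins of G1 stayed level, with Ccnd1 at 83.0% and 83.4% and Ccnd2 at 93.2% and 92.2%. Several mitotic genes stayed well covered, among them Ccnb2 (87.2% and 85.4%), Plk1 (84.8% and 75.8%) and Cdk1 (95.0% and 85.9%). At day 35, 31 of the 57 genes were still covered over at least 50% of their body, against 55 at day 3.

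The replication and repair list fell less deeply. Of 53 genes 17 fell (32.1%) and none rose, all 53 were lower at day 35 by some amount, and the median change was -15.86 points. Genes of the Fanconi anaemia pathway and of recombination moved unequally. Fanca went from 96.4% to 11.4%, Fancd2 from 76.0% to 0%, Fanci from 78.6% to 12.4% and Rad54l from 93.5% to 28.5%, and Brca2 was at 91.3% and 71.0%. Cdc6, which loads the replicative helicase, went from 95.2% to 31.9%. The helicase itself stayed covered, with Mcm2 at 94.1% and 92.3%, Mcm5 at 97.6% and 91.2% and Mcm6 at 96.0% and 89.3%. Mcm7 was the one Mcm gene of the list to fall, from 100% to 70.7%. Enzymes of nucleotide supply differed among themselves: Rrm2 went from 94.2% to 63.5%, and Tyms was at 94.0% and 85.2%. Start sites moved with both lists, since H3K27Ac fell at 26 of the 57 cell cycle genes and 16 of the 53 replication genes, against 5.75% of all genes, and rose at none.

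The interferon list fell in part. Of 61 genes 18 fell (29.5%) and none rose, 54 were lower by any amount and 3 higher, and the median change was -11.14 points. Several antiviral effectors fell. Oas2, which makes the activator of RNase L, went from 66.4% to 0%, Isg15, a ubiquitin-like modifier, from 56.3% to 0%, and Ifit3 from 59.6% to 0%. Ifit2 went from 79.9% to 8.07% and Ifit1 from 87.5% to 33.2%. Among the immunity-related GTPases Irgm1 went from 93.5% to 59.4% and Igtp from 89.3% to 51.2%. Cd274, the checkpoint ligand PD-L1, went from 69.8% to 3.08%, and Irf8, a transcription factor of myeloid cells, from 72.5% to 0%. Ifit, guanylate-binding and H2 genes have close copies, and no source used here says how reads of such copies were placed.

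The signalling chain above these targets was mostly covered at both days. Stat2 was at 98.5% and 87.4%, Irf9 at 100% on both days, Jak2 at 96.3% and 95.8%, and the receptor gene Ifngr2 at 83.7% and 83.8%. Irf1, an early target of interferon gamma, was at 92.6% and 80.3%. Several effectors were also still covered at day 35, among them Rnf213 (98.0% and 97.2%), Mx2 (93.6% and 92.2%) and Parp9 (92.7% and 92.8%). Cxcl9 and Cxcl10 had no coverage at either day. Socs1, the feedback inhibitor of the pathway, went from 40.2% to 0%. H3K27Ac fell at the start of 19 of the 61 genes and H4K20me1 fell over the body of 22, against 2.68% of all genes for H4K20me1.

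Antigen presentation fell in a larger share, with 11 of 23 genes lower by 25 points (47.8%) and 1 higher, at a median of -24.60 points. The class II genes H2-Eb1 and H2-Aa went from 92.4% to 6.41% and from 87.3% to 9.14%, and Ciita, their master regulator, from 56.2% to 19.1%. All 3 immunoproteasome subunits fell: Psmb10 from 100% to 23.3%, Psmb8 from 100% to 30.6% and Psmb9 from 100% to 54.3%. In class I, H2-T23 went from 68.2% to 0%, H2-D1 from 78.6% to 49.6% and B2m, the shared light chain, from 94.3% to 66.0%. The peptide transporter gene Tap1 was at 100% and 84.4%, and the chaperone gene Tapbp at 83.1% and 80.3%. H2-DMb1, which helps load class II, went from 35.9% to 66.9%, a rise not seen once regions closer than 5 kb were merged (-0.391 points).

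**Figure D3:**
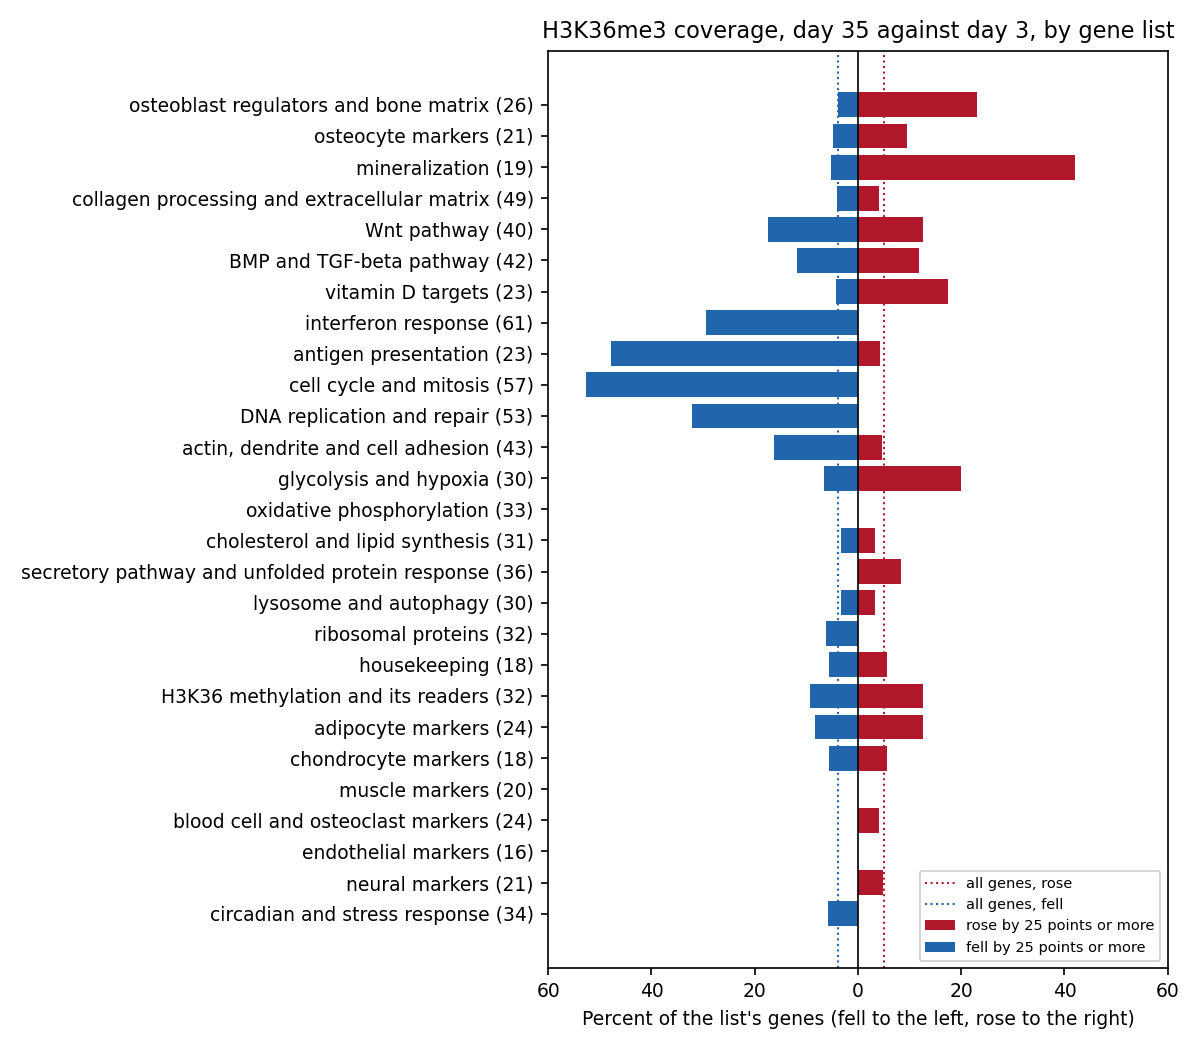
Percent of the genes of each list (number of genes in brackets) that fell (left of 0) or rose (right of 0) by at least 25 points between day 3 and day 35, with dotted lines at 3.91% and 4.99%, the shares of all genes. Cell cycle (52.6%) and antigen presentation (47.8%) reach furthest to the left and mineralization (42.1%) furthest to the right.

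Bone genes moved the other way in part. Of 19 mineralization genes 8 rose (42.1%, against 4.99% of all genes) and 1 fell. Alpl, the alkaline phosphatase that frees phosphate, went from 41.5% to 81.6%, and Phospho1, which makes phosphate inside matrix vesicles, from 10.3% to 55.4%. Smpd3, a sphingomyelinase needed for bone mineral, went from 45.9% to 100%. The pyrophosphate makers and movers rose with them: Enpp1 went from 0% to 48.4% and Ank from 16.4% to 63.9%. Fam20c, the kinase of secreted matrix proteins, went from 31.0% to 78.9%. The phosphate transporter gene Slc20a2 fell from 61.1% to 33.8%, and Slc20a1 was at 92.2% and 90.6%. The list's median change was 0, so the rises did not reach the middle of the list. Over exonic bases alone 4 of its genes rose.

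Of 26 osteoblast genes 6 rose and 1 fell, and the number at least 50% covered went from 16 to 20. Ibsp, bone sialoprotein, went from 21.2% to 82.1%, and Spp1, osteopontin, from 51.3% to 77.7%. Bmp2, a bone morphogen, went from 0% to 68.3%, Dlx3, a homeobox factor, from 0% to 52.7%, and Pth1r, through which parathyroid hormone acts, from 40.0% to 67.9%. Twist1, an inhibitor of Runx2, fell from 61.2% to 26.1%. The lineage factors were level, with Runx2 at 69.6% and 67.6% and Sp7 at 76.7% and 84.0%. The type I collagen genes were nearly filled at both days: Col1a1 was at 98.9% and 99.5% and Col1a2 at 97.5% and 97.3%. Bglap, osteocalcin, is a very short gene and had no coverage at either day. Over exonic bases alone, or with 5 kb added on each side of the gene, 3 osteoblast genes rose.

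The markers that define osteocytes were mostly uncovered at day 35, although the labels give this stage as the product of osteocyte differentiation. Of the 5 defining markers on these chromosomes, Pdpn alone was at least 50% covered (53.3% and 55.9%). Mepe, Sost and Fgf23 were at 0% on both days. Around the Mepe start H3K27Ac and H4K5Ac nevertheless covered 100% on both days, with H3K9Ac at 3.87% and 10.0%. Around the Sost start H3K27Ac was at 19.7% and 20.9%. H3K36me3 covered 42.3% and 41.8% of the body of Dmp1. H4K20me1 covered similar shares of its body, at 41.2% and 40.6%, as did H3K9me3, a mark of silent chromatin, at 42.5% and 41.2%. The Dmp1 value is therefore not read here as a sign of transcription. Whether reads from the transgene, which holds the Dmp1 promoter, count in this coverage was not tested. Over the wider osteocyte list of 21 genes 2 rose, Fam20c and Tnfrsf11b, the RANKL decoy receptor (22.1% to 56.3%), and 1 fell, Dstn, an actin-severing protein (63.1% to 20.7%). The region with most overlap at Dstn was at the 3.43 percentile of score density at day 3 and at the 99.5 percentile at day 35. Tnfsf11, which encodes RANKL, was at 0% and 2.06%. Among the vitamin D genes Vdr, the receptor, went from 5.18% to 49.5%, and Cyp24a1 was at 0% on both days, in cells given no hormone.

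Markers of other cell types were mostly at 0. All 4 muscle and all 4 endothelial defining markers were at 0% on both days. Of the 4 neural markers only Tubb3 was covered, at 29.7% at day 35. Of 5 blood and osteoclast markers Ctsk was at 84.7% on both days and Ptprc, Sfpi1 and Acp5 were at 0%. The adipocyte markers Fabp4, Adipoq and Plin1 were at 0%, and Pparg, the adipocyte factor, fell from 64.3% to 15.9%. In the wider adipocyte list of 24 genes 3 rose and 2 fell. Lpl, lipoprotein lipase, rose from 0% to 45.5%, Klf15, a transcription factor, from 0% to 69.8% and Pnpla2, a triglyceride lipase, from 0% to 50.1%, and Ebf1 fell from 43.4% to 16.7%. The cartilage genes Acan and Col2a1 were at 0% at both days, Sox9 was at 73.2% and 64.7%, and Comp, a matrix protein of cartilage and tendon, rose from 34.0% to 81.4%, while Epyc, a cartilage proteoglycan, fell from 46.7% to 0%.

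Most matrix and secretory genes were covered over at least 50% of their body at both days. Of 49 collagen and matrix genes 42 were at least 50% covered at day 3 and 44 at day 35, with 2 rises and 2 falls. Eln, elastin, went from 3.52% to 66.2%, and Lum, lumican, from 100% to 64.9%. Tgfbi, a secreted matrix protein, was at 0% and 1.67%. Of 36 secretory pathway genes 3 rose and none fell. These were Ern1, a stress sensor of the endoplasmic reticulum (37.3% to 65.1%), and the stress-induced Trib3 (0% to 85.5%) and Chac1 (0% to 69.9%). Of 33 genes of oxidative phosphorylation none rose or fell. Of 30 glycolysis and hypoxia genes 6 rose and 2 fell. Hk2, the inducible hexokinase, went from 14.5% to 88.7%, Pfkp, a phosphofructokinase, from 10.7% to 55.0%, and Pdk1, which slows entry of pyruvate into the mitochondrion, from 52.4% to 89.0%. Hif1a, the hypoxia factor, went from 79.8% to 48.3%, with its main region at the 97.4 and 99.8 percentiles of score density.

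The actin and adhesion list fell in 7 of 43 genes and rose in 2. Tagln, a smooth muscle actin-binding protein, went from 79.2% to 44.9%, Vcl, vinculin of focal adhesions, from 89.9% to 57.3%, and Itgb1, the shared integrin chain, from 97.0% to 68.3%. The region with most overlap stayed high in score density, at the 98.6 and 99.2 percentiles for Itgb1 and the 96.9 and 94.8 for Tagln. There the covered extent was smaller while the main region still ranked high in its list. Ctgf, a matricellular target of YAP, went from 0% to 67.3%, and Ezr, which ties actin to the membrane, from 2.23% to 40.3%. Yap1 itself was at 96.4% on both days. Genes of basic cell function moved little by count. Of 32 ribosomal protein genes none rose and 2 fell, at a median of -8.06 points, and of 18 housekeeping genes 1 rose and 1 fell. Gapdh was at 63.1% and 67.0% and Actb, which is 3.64 kb long, at 100% and 78.6%. The lysosome list (30 genes) and the cholesterol and lipid list (31 genes) each had 1 rise and 1 fall: Gabarapl1, of autophagy, went from 53.7% to 83.6%, Ctsb, a lysosomal protease, from 90.4% to 63.6%, and Abca1, the cholesterol exporter, from 54.2% to 82.2%. In the circadian and stress list of 34 genes none rose and 2 fell, Jun (73.1% to 25.7%) and Nfil3 (77.8% to 37.6%).

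Signalling lists moved both ways. Of 40 Wnt genes 5 rose and 7 fell, and over exonic bases alone 8 rose and 3 fell. The secreted amplifiers of the R-spondin family fell, Rspo2 from 70.2% to 0.333% and Rspo3 from 92.1% to 23.9%, as did the receptor Fzd2, from 77.7% to 0%. The nuclear factors Tcf7l1 and Tcf7l2 went from 57.6% to 22.0% and from 92.9% to 63.6%, and Tcf7, of the same family, from 6.27% to 72.6%. The ligand Wnt10b went from 11.99% to 69.0%, and the feedback inhibitors Nkd1 and Nkd2 from 0.680% to 53.3% and from 0% to 92.1%. The co-receptor genes Lrp4 (91.9% and 92.2%) and Lrp5 (67.1% and 72.4%) were level. Of 42 BMP and TGF-beta genes 5 rose and 5 fell. The 3 Id genes, direct targets of BMP signalling, fell: Id1 from 37.0% to 0%, Id2 from 35.6% to 0% and Id3 from 80.0% to 20.3%. These bodies are short, at 1.16, 2.29 and 2.26 kb. On both days H3K27Ac covered at least 99.2% around their starts and H4K20me1 at least 87.4% of their bodies. H3K4me3 around the start went from 64.5% to 29.7% at Id1, from 100% to 27.4% at Id2 and from 48.1% to 41.1% at Id3. Chrd, a BMP antagonist, went from 8.55% to 52.9%.

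The genes that write, erase and read the mark were themselves mostly covered at both days. Setd2 was at 98.3% and 86.4% and Nsd1, a dimethyltransferase, at 97.0% and 96.7%. Of 32 such genes 4 rose and 3 fell. Dnmt3a and Dnmt3b, DNA methyltransferases that bind H3K36 methylation, went from 42.9% to 70.5% and from 20.4% to 61.3%. The demethylase gene Kdm4b went from 39.2% to 74.4%. Phf19, a Polycomb protein that reads the mark, went from 76.7% to 0%.

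In part of the genes, the mark at day 35 began further from the start. In genes of at least 10 kb that were at least 50% covered at both days and changed by under 25 points (5113 genes), the first covered base lay a median of 2.02 kb from the start at day 3 and 2.58 kb at day 35. Taken gene by gene, the median difference was 0.263 kb, and in 3500 genes the edges of the 2 days lay within 1 kb. The edge lay over 1 kb later at day 35 in 1382 genes (27.03%) and over 1 kb earlier in 231 (4.52%). In genes of at least 50 kb the medians were 2.49 and 3.87 kb. With lists trimmed by score to equal covered length, the shares were 23.2% and 7.69%. Top2a, the replication-linked topoisomerase, had its edge at 0.735 kb at day 3 and at 5.58 kb at day 35, and Brca2 at 1.54 and 6.63 kb. Setd2 itself went from 1.47 to 3.77 kb, while Col1a1 was at 0.183 and 0.078 kb and Fn1, fibronectin, at 1.20 and 1.16 kb.

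At day 35 the fallen genes were covered more at their ends than at their starts. Averaged over 551 fallen genes of at least 10 kb, coverage at day 35 was 18.0% in the second of 10 equal parts of the body and 71.2% in the last part, against 73.2% and 93.2% at day 3. Of these genes 84 had under 10% of the 5 prime 50% of the body and at least 50% of the 3 prime 50% covered at day 35, and 73 had under 10% of the whole body. The 720 risen genes were covered mainly towards the end: at day 35 their coverage was 11.8% in the first part and 83.9% in the ninth. Kept genes were also covered more towards the end, at 21.2% and 96.3% in the same parts at day 35.

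**Figure D4:**
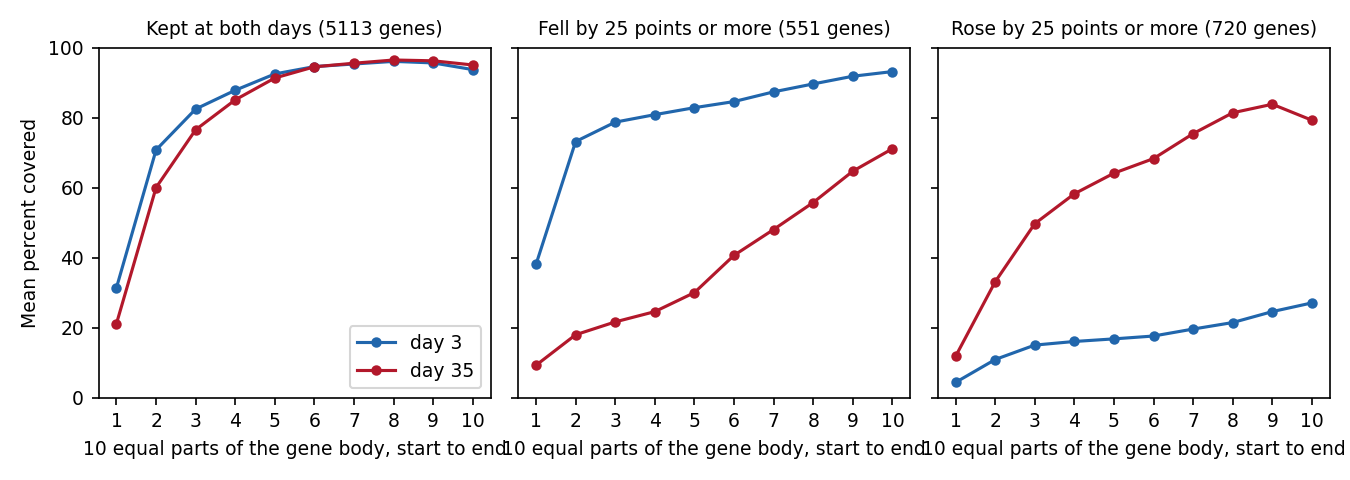
Mean percent covered (vertical axis) in each of 10 equal parts of the gene body, from start to end (horizontal axis), at day 3 and day 35 for genes of at least 10 kb that were kept (5113), fell (551) or rose (720). At day 35 the fallen genes climb from 9.30% in the first part to 71.2% in the last, and the kept genes differ between days mainly in the first parts.

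Other marks, read from their own libraries, moved in the same direction as H3K36me3 in part of the genes. Over all genes H3K4me2 rose more often than it fell, and H3K4me3 fell more often than it rose. H3K27Ac within 2 kb of the start rose by 25 points in 16.4% of genes with risen H3K36me3 (all genes 3.62%) and fell in 20.5% of genes with fallen H3K36me3 (all genes 5.75%). For H4K5Ac the shares were 18.9% (all genes 4.73%) and 16.7% (3.72%), and for H3K9Ac 13.7% (3.1%) and 12.8% (3.03%). H4K20me1 over the body rose in 25.0% of risen genes (all genes 9.34%) and fell in 16.9% of fallen genes (2.68%). H3K4me3 fell at 34.7% of fallen genes, against 8.14% of all genes, and rose at 1.03% of risen genes, against 0.219%. At risen genes it fell more often than it rose, at 39 (3.65%, below the 8.14% of all genes) against 11. H3K4me2 rose at 22.4% of risen genes (6.84% of all) and fell at 1.43% of fallen genes (0.383%). At fallen genes it rose more often than it fell, at 33 (3.94%, below the 6.84% of all genes) against 12. H3K4me1 rose at 9.55% of risen genes (3.28%) and fell at 16.7% of fallen ones (5.69%). H3K9me3, a mark of silent chromatin, rose over none of the fallen genes (0.705% of all genes) and fell over 3.46% of them (2.05% of all).

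Most genes that changed in H3K36me3 had no acetyl mark past 25 points. At least 1 of the 3 acetyl marks rose at 300 of the 1068 risen genes (28.1%, all genes 7.90%), all 3 rose at 68, and none passed 25 points either way at 714. At the 838 fallen genes at least 1 fell at 237 (28.3%, all genes 9.01%), all 3 at 45, and none passed 25 points at 575. At least 1 fell at 60 of the 1068 risen genes, against 9.01% of all genes. At least 1 rose at 26 of the 838 fallen genes, against 7.90% of all genes. The share of all genes with no acetyl mark past 25 points was not computed, so the 714 and 575 have no background.

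**Figure D5:**
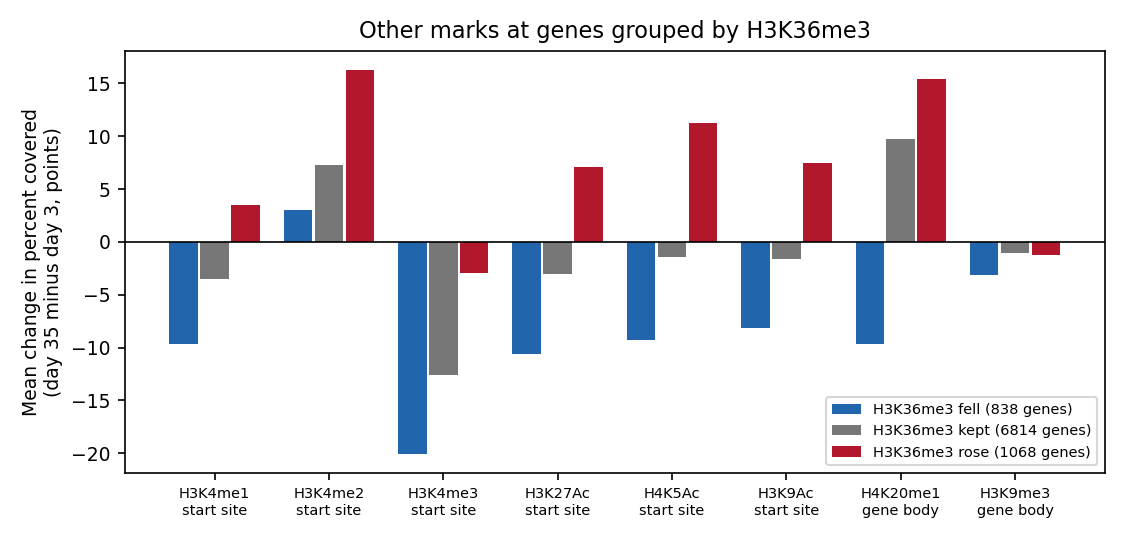
Mean change in percent covered (day 35 minus day 3, in points) of 8 other marks, within 2 kb of the start or over the gene body, in genes whose H3K36me3 fell (838), was kept (6814) or rose (1068). H3K27Ac, H4K5Ac, H3K9Ac and H4K20me1 are negative in fallen and positive in risen genes, H3K4me2 is positive and H3K4me3 and H3K9me3 are negative in all 3 sets.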

How the data were processed

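Each library has 1 deposited list of called regions with their positions and a score. The score is the authors' own number on a scale that no source used here states, and it served only to rank regions within a list. Bowtie, HOMER and mm9 are named in the submitters' processing notes. No source used here gives versions, parameters, the use of input or the read depth. Chromosome ends were checked against NCBIM37 (mm9), with 0 regions beyond them, and genes are the protein-coding genes of GENCODE M1 for that build, from lowest start to highest end. The percent of each body under merged regions was computed with Python 3.11.15, numpy 2.4.6 and pandas 2.3.3, and the coverage code was tested on simulated data. No 2 regions of either list lay closer than 2000 bp.

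With 1 library per day no test was run. Genes past 25 points were counted as risen or fallen. The text names the 15 largest rises and falls among genes of at least 10 kb, with under 10% of the body in another gene, outside a chromosome 10 block of wide H3K4me3 regions, and past 25 points also with lists of equal covered length. It also names listed genes past 25 points and a short fixed set. Unmoved members of the lists, genes at the threshold and the genes of families and runs were named after their values were seen. Members and lists were chosen with earlier results of these data known. Of 843 listed entries 818 were used, 15 by an older symbol; 21 lie on other chromosomes and 4 did not match.

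Alternatives were the higher-scoring 50% of regions, equal covered length, merging within 1 or 5 kb, 5 kb flanks, the 3 prime 50%, bases in no other gene, exonic bases, genes of at least 10 kb, leaving out the chromosome 10 block, thresholds of 10 and 50 points and, added after seeing the data, leaving out gene models in the first 3.1 Mb of chromosome 9. Motifs were matched as letters on both strands. Some items are not reported here.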

Additional observations from a re-analysis of the deposited data

How the results depend on the processing

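No paired analysis was possible because each day has 1 library. The genes that rose numbered 2211 at 10 points and 342 at 50 points, and those that fell 2367 and 232, with 510 over exonic bases and 551 among genes of at least 10 kb. Cell cycle genes that fell numbered 18 at 50 points. Replication genes that fell numbered 10 over the 3 prime 50%, 34 at 10 points and 6 at 50 points. Interferon genes that fell numbered 11 in genes of at least 10 kb, 32 at 10 points and 10 at 50 points, and antigen presentation genes 7 over the 3 prime 50%, 3 in genes of at least 10 kb and 6 at 50 points. Osteoblast genes that rose numbered 3 with 5 kb flanks, over exonic bases and at 50 points. Mineralization genes that rose numbered 5 over the 3 prime 50%, 4 over exonic bases and 2 at 50 points. Wnt genes that rose numbered 8 over exonic bases and 3 in genes of at least 10 kb, and those that fell 3 over exonic bases, 12 at 10 points and 3 at 50 points. For all genes and for these lists and directions, the other 125 recomputed counts moved by at most 1.5 times. Some counts of other lists or directions moved further and are not given here. Merging within 1 kb changed nothing, since no gap is that short. Of 1068 risen and 838 fallen genes, 829 and 358 also passed over exonic bases, 834 and 770 with the higher-scoring 50%, and 1068 and 788 at equal covered length. Of 2147 recomputed changes of named genes 3 changed sign: H2-DMb1 (-0.391 points with merging within 5 kb), Wnt16 (1.97 over the 3 prime 50%) and Elovl6 (0.218 over exonic bases). The cause was not tested. Depth is unknown, so an uncovered gene may hold mark below the authors' calling limit.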

Other observations

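Gene families gave further groups. Families were read from symbols as the letters before the first digit, for 248 families of at least 10 members. Of 343 Slc genes, the solute carriers, 37 rose (10.8%, against 4.99% of all genes) and 10 fell (2.92%, against 3.91%). Slc40a1, the iron exporter ferroportin, went from 19.1% to 79.3%, and Slc13a5, a citrate transporter, from 0% to 76.9%. Slc7a5, a transporter of large neutral amino acids, went from 43.3% to 77.1%, while Slc3a2, which encodes its partner chain, went from 100% to 43.5%. Of 16 Abca lipid transporters 5 rose and none fell, with Abca2 going from 0% to 77.9% and Abca3 from 4.54% to 72.3%. Of 37 kinesin genes 10 fell and 4 rose. Those that rose were Kif21a (4.61% to 50.8%), Kif21b (0% to 69.2%), Kif26b (28.5% to 58.4%) and Kif7, of cilia and hedgehog signalling (60.7% to 87.4%). Of 12 Hoxa genes, which set position along the body, 4 fell: Hoxa13 from 42.7% to 0%, Hoxa4 from 44.9% to 0%, Hoxa9 from 59.8% to 16.5% and Hoxa10 from 51.3% to 15.9%. No coverage was found at either day in 1100 of 1106 olfactory receptor genes or 65 of 67 Hist genes, which are short.

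Neighbouring genes fell together in a few places. There were 6 runs of at least 4 annotated gene entries in a row past 25 points the same way, 5 of falls and 1 of rises. On chromosome 11 Slfn9, Slfn8, Slfn10-ps and Slfn2, of the Schlafen family, went from between 51.6% and 85.0% to between 0% and 38.5%. On chromosome 19 Ifit2, Ifit3, Gm14446 and I830012O16Rik ended between 0% and 9.14%, and on chromosome 18 the 5 genes around Iigp1 ended between 0% and 6.31%. On chromosome 9 Mns1 went from 78.0% to 11.9% beside Tex9 and Rfx7; Tex9 is entered 2 times in the annotation, so this run holds 3 distinct genes. The run at the start of chromosome 9 is 7 gene models that went from 100% to 0%. The rise was Ugt1a5, Ugt1a2, Dnajb3 and Ugt1a1 on chromosome 1, whose bodies overlap, so 1 stretch of mark counts for several of them.

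The share of H3K9me3 regions that overlapped H3K36me3 was 27.3% of 31517 at day 3 and 2.78% of 33952 at day 35. The share for regions placed at random was not computed for either day. The H3K9me3 list itself also differed, with a smaller share of gene bodies holding any H3K9me3 region at day 35. Whether the 2 marks lost shared places was therefore not tested. The chromosome 10 block, where H3K4me3 covered 2.94% of the bases at day 3 and 90.9% at day 35, had H3K36me3 over 27.6% and 30.4%. The other marks also covered more of the block at day 35, among them H3K9me3, at 15.8% and 48.3%. The H3K36me3 region with the highest score at day 35 lay in the block, over Nup107. Those over Cnot2, Mdm2 and Frs2, also in the block, ranked 8, 9 and 10.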
